A study of Mus musculus with 8 samples.

Results

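Mitochondrial ribosomal protein genes are the nuclear genes for the proteins of the ribosome that works inside mitochondria. They were taken here as every gene of the expression table whose symbol is Mrpl or Mrps followed by a number and at most 1 letter. The rule found 76 of 23293 mouse genes, 47 for the large subunit (Mrpl) and 29 for the small subunit (Mrps), and used no measured value. All 76 had a mean of at least 1 FPKM, the minimum for a test, and none was listed at 0 in any library. FPKM is the number of sequenced fragments per kilobase of transcript, scaled to the mapped fragments of the library.

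The mitochondrial ribosome translates the few messages of the mitochondrial genome, which encode core subunits of the respiratory chain and of ATP synthase. Its RNAs come from the mitochondrial genome, but its proteins are made in the cytosol from nuclear genes and imported. Many resemble proteins of bacterial ribosomes and are numbered after them, while others exist only in mitochondria. The symbols do not always follow the structure: Mrps30 and Mrps18a encode proteins that sit in the large subunit, and the product of Mrps36 is now assigned to the 2-oxoglutarate dehydrogenase complex. Subunit counts, sums and medians here follow the symbols, so these genes are counted with the small subunit. In bone marrow, mitochondrial translation supplies the respiratory chain on which proliferating progenitors and red cell precursors draw.

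The study asked how the dose of cohesin, the ring complex to which Smc3 belongs, affects normal and malignant blood formation. RNA was sequenced from bone marrow cells selected with magnetic beads for c-Kit (Cd117), a receptor of stem and progenitor cells, in 8 libraries from individual mice, taken 4 weeks after PIpC, the inducer of Mx1-cre. Controls (2 libraries) carried 1 floxed Smc3 allele (Smc3 fl/+) and no Mx1-cre. The Smc3 del/+ group (2) carried Mx1-cre and a single floxed Smc3 allele, the Flt3-ITD group (2) Mx1-cre and the activating internal tandem duplication of the Flt3 receptor, and the combined group (2) Mx1-cre together with both the Smc3 and the Flt3 allele, so that its libraries are also called those with both alleles. Its genotype field reads Smc3 fl/del Flt3-ITD and its title Smc3het, so the labels describe its Smc3 dose in different ways. Mx1-cre acts in many blood and other cells, and the labels give neither age nor sex.

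Each library had 10490 to 10843 mouse genes at 1 FPKM or more, and the depth in reads is unknown. Smc3 itself measured 119 and 112 FPKM among controls, 135 and 133 in libraries labelled Smc3 del/+, 94.7 and 89.9 with Flt3-ITD and 103 and 136 with both alleles, so the labelled deletion did not show as lower Smc3, and the groups are named here as labelled. Flt3 and Kit were present in all libraries, at 3.64 to 14.3 and at 37.4 to 60.1 FPKM. Xist, which female cells express, was at 617 and 657 FPKM in controls and 500 and 596 in the combined group, but at 0.936 or less in the other 4 libraries. Sex and genotype therefore cannot be told apart when the Smc3 del/+ or the Flt3-ITD group is set against control, in comparisons of the combined group with Flt3-ITD, or in the interaction, whereas the averaged effects and the combined group against control are balanced for it. Only controls lacked Mx1-cre, so its presence cannot be told apart from genotype in comparisons with control or in the interaction. The averaged effects are not balanced for it. Combined replicate 2 stood apart, with 11076 genes listed at 0 against 8878 to 9907 elsewhere.

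Levels differed widely between the members. Mean FPKM over the 8 libraries, a level per transcript length, ran from 3.04 to 114, with a median of 18.6 for the large and 19.0 for the small subunit. Cytosolic ribosomal protein genes (84) had a median level of 394 FPKM and nuclear-coded respiratory chain genes (82) of 54.4. The highest members were Mrps15 at 114, Mrpl33 and Mrpl42 at 112 each, Mrps18c at 89.1 and Mrpl20 at 73.0 FPKM. The products of Mrps15, Mrpl33 and Mrpl20 have bacterial counterparts of the same number, and that of Mrpl42 exists only in mitochondria. The lowest were Mrpl17 at 3.04, Mrpl11 at 3.49, Mrpl35 at 4.10, Mrps6 at 4.93 and Mrpl21 at 7.51 FPKM, all with bacterial counterparts of the same number.

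The most and the least abundant member stayed far apart in every library. Mrps15 was at 128 and 117 FPKM among controls, 126 and 142 among Smc3 del/+ libraries, 115 and 103 with Flt3-ITD and 79.3 and 103 with both alleles. Mrpl17 was at 3.47 and 3.57, 2.93 and 3.65, 2.64 and 2.32, and then 3.0 and 2.72 FPKM in the same order. Flt3-ITD libraries were thus the lowest for Mrpl17, while for Mrps15 the lowest library was combined replicate 1. The ratio of the highest to the lowest library was smallest for Mrpl24 (1.35) and largest for Mrps28 (7.0).

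Summed over each subunit, the genes were lower in Flt3-ITD than in controls by about the same proportion. The 47 large subunit genes summed to 1516 ± 67.1 FPKM among controls, 1505.6 ± 59.8 among Smc3 del/+ libraries, 1114.4 ± 14.6 with Flt3-ITD and 1330.6 ± 381 with both alleles (SD, n = 2 per group). The 29 small subunit genes summed to 840.4 ± 28, 848 ± 59.7, 625 ± 23.3 and 685 ± 170 FPKM. Sums in the Flt3-ITD libraries did not overlap with those of the controls, whereas the combined libraries lay far apart. Their replicate 1 had 1061 and 565 FPKM and their replicate 2 had 1599.8 and 805 FPKM for the large and small subunit, so that the small subunit was below both controls in both libraries and the large subunit in 1. The ratio of the large to the small sum was 1.80 ± 0.0198, 1.78 ± 0.0545, 1.78 ± 0.0430 and 1.93 ± 0.0774 in control, Smc3 del/+, Flt3-ITD and combined libraries. As a share of all mouse FPKM apart from the microRNA gene Mir5133, the members made up 0.452% ± 0.000559, 0.443% ± 0.0200, 0.276% ± 0.0213 and 0.323% ± 0.0491 in the same groups.

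**Figure D1:**
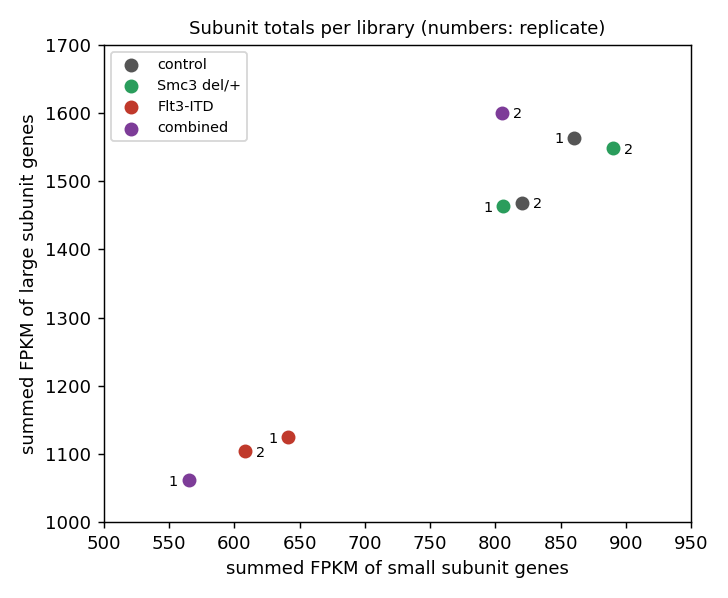
Summed FPKM of the 29 small subunit genes (x axis) and of the 47 large subunit genes (y axis) in each of the 8 libraries, coloured by group and numbered by replicate; neither axis starts at 0. Both Flt3-ITD libraries and combined replicate 1 lie at 565 to 641 and 1061 to 1125 FPKM, below the other 5 libraries.

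In the libraries labelled Smc3 del/+, no member passed the test against controls. The median log2 fold change of the 76 was 0.02, with 44 positive and 32 negative, beside a median of 0.00 for all 10854 genes tested. It was 0.01 for the large and 0.04 for the small subunit. Every log2 fold change here was taken after adding 1 FPKM, and the test is limma's with Benjamini-Hochberg adjustment over all genes tested, at a threshold of 0.05. None of the 76 was called, where 0% of all genes were called higher and 0.00921% lower. None had an unadjusted p under 0.05, beside 250 of all genes on the higher and 244 on the lower side.

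In 12 members both libraries lay above both controls and in 9 below (24.2% and 23.2% of all genes). Of these, the 3 of smallest p in each direction are given, none of which passed. Mrpl52, which encodes a protein found only in mitochondria, was at 61.7 and 67.1 FPKM in Smc3 del/+ against 98 and 91.8 in controls, a log2 fold change of -0.55 ± 0.264 (SE, adjusted p = 1.0). Mrps16, with a bacterial counterpart, was at 17.1 and 21.6 against 26.4 and 22.9, and Mrps36 at 28.8 and 33.1 against 35.7 and 38.4 FPKM. On the higher side, Mrps9 was at 26.8 and 27.2 against 24.9 and 22.2, Mrps35 at 31 and 30.2 against 28.6 and 22.8, and Mrps23 at 31.7 and 28 against 26.9 and 22.8 FPKM. The log2 fold changes of these last 5 were -0.34 ± 0.174, -0.26 ± 0.140, 0.19 ± 0.131, 0.25 ± 0.185 and 0.26 ± 0.213 (SE), each with an adjusted p of 1. Mrpl27 had a smaller p than these 3 on the higher side (0.37 ± 0.245, adjusted p = 1.0), with overlapping libraries.

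In Flt3-ITD cells 14 of the 76 members fell against controls and none rose, where 9.5% of all genes were called lower and 8.51% higher. The 14 comprised 8 of 47 large and 6 of 29 small subunit genes by symbol, with Mrps36 among the latter. The median log2 fold change was -0.44 for all members and -0.44 for each subunit, beside -0.01 for all genes tested, and 70 of 76 members had a negative value. Flt3-ITD libraries lay wholly below the controls in 56 members and wholly above in 1 (35.2% and 34.3% of all genes). These values come from a whole selected cell fraction, in which fewer cells of a type and less RNA per cell cannot be told apart. Erythroid markers summed to 37.3 to 38.4 FPKM with Flt3-ITD against 279 to 292 in controls, and granulocyte markers to 158660 to 223570 against 79947 to 87065. Their part in the values of the members was not tested.

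**Figure D2:**
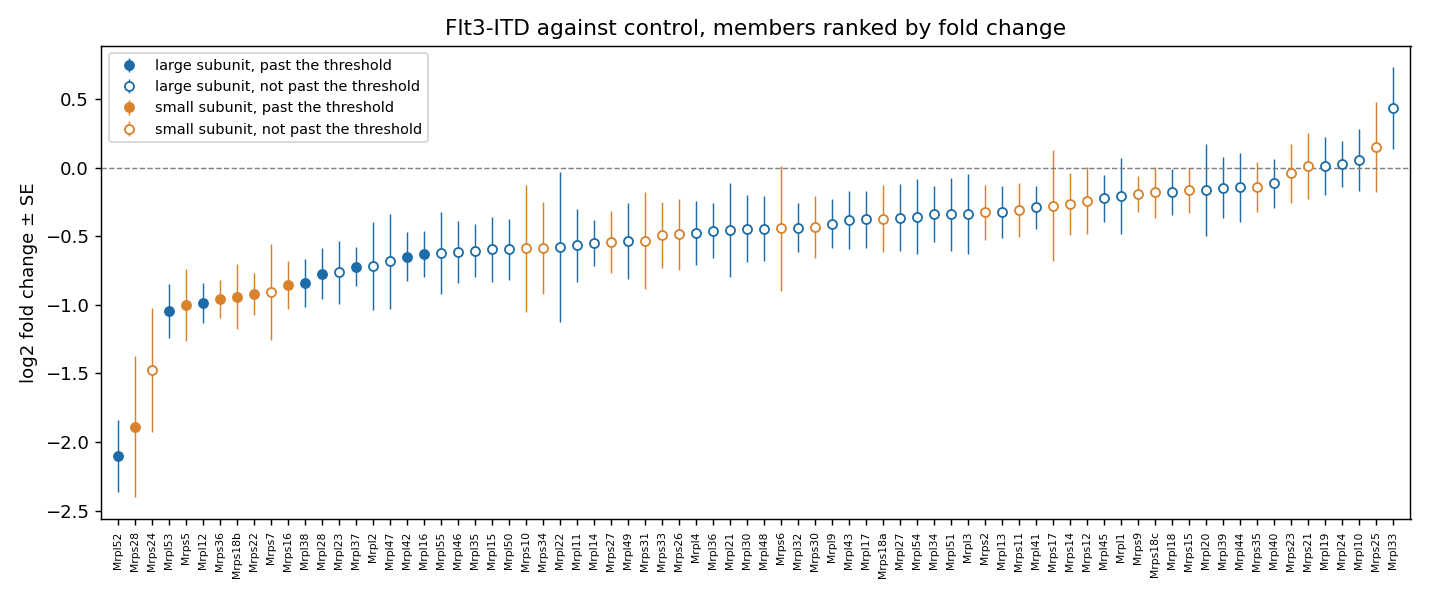
Log2 fold change with its standard error (y axis) of each of the 76 members in Flt3-ITD against control, ranked along the x axis, coloured by subunit and filled where past the threshold. The 14 filled points are all below 0, large and small subunit genes are mixed along the ranking, and Mrpl33 is at the upper end with 0.43.

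The promoters of the 6 members called lower in both groups with Flt3-ITD are shown because these genes passed in both comparisons: Mrpl12, Mrpl38, Mrpl52, Mrpl53, Mrps22 and Mrps36. RefSeq promoters of GRCm38.p6 were matched by symbol for 67 of 76 members; Mrpl38 had none. The 150 bases before the start of Mrpl53 are chr6:83108958-83109107 on the plus strand, of Mrps22 chr9:98601680-98601829 on the minus strand, of Mrpl12 chr11:120484487-120484636 on the plus strand, of Mrps36 chr13:100744660-100744809 on the minus strand and of Mrpl52 chr14:54426759-54426908 on the plus strand. They are written 5′ to 3′ along the gene, with motif matches in capitals (the ETS motif CCGGAAG or CTTCCGG and the GC box GGGCGG).
Mrpl53: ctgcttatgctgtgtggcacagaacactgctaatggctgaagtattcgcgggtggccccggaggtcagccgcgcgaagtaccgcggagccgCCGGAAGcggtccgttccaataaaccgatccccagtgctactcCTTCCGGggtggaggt
Mrps22: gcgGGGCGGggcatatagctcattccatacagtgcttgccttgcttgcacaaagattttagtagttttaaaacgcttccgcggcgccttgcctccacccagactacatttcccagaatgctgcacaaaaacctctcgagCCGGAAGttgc
Mrpl12: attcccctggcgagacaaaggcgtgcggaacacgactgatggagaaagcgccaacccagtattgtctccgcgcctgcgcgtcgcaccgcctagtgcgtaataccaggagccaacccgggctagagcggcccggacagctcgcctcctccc
Mrps36: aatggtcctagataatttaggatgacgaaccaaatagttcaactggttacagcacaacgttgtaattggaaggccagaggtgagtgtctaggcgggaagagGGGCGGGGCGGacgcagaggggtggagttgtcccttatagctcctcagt
Mrpl52: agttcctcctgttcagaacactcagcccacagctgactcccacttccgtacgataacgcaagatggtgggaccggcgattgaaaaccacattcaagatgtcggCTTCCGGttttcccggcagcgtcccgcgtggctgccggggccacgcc

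Of these stretches, 3 hold CCGGAAG, the ETS motif that GABPA can bind, and Mrpl12 holds none of the motifs searched. In Mrpl53 it starts 59 bases before the transcription start and, on the other strand, 16 bases before it. In Mrps22 it starts 11 bases before, beside a GC box (GGGCGG) at 147. In Mrpl52 it lies on the other strand at 47. Mrps36 has a pair of GC boxes, at 49 and 44, which share 1 base. A match is a description of letters and not a bound site.

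Both comparisons use the same 2 controls. Among these 6 members Mrpl52 changed most. It measured 28.7 and 15.8 FPKM with Flt3-ITD and 30.3 and 40.5 with both alleles. Against the 98 and 91.8 FPKM of controls, its log2 fold changes were -2.10 ± 0.264 (SE, adjusted p = 0.00346) and -1.41 ± 0.264 (adjusted p = 0.0177). No library of either group with Flt3-ITD reached any library without it.

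Mrpl12 encodes the protein of the ribosomal stalk that recruits translation factors, and it also binds the mitochondrial RNA polymerase. It was at 58.2 and 53.2 FPKM among controls, 49.5 and 53.7 among Smc3 del/+ libraries, 29.2 and 26.2 with Flt3-ITD and 30.6 and 37.1 with both alleles. The log2 fold change against control was -0.98 ± 0.145 in Flt3-ITD (SE, adjusted p = 0.00568) and -0.71 ± 0.145 in the combined group (adjusted p = 0.0231). Its exons share bases with Gm16755 on the opposite strand, and none of the sources used here says whether reads were assigned by strand.

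Mrpl53 and Mrpl38 both encode large subunit proteins that exist only in mitochondria. Mrpl53 was at 14.9 and 20.6 FPKM among controls, 15.6 and 17.1 among Smc3 del/+ libraries, 7.31 and 8.74 with Flt3-ITD and 9.64 and 8.29 with both alleles. Its log2 fold change was -1.04 ± 0.196 in Flt3-ITD (SE, adjusted p = 0.0131) and -0.90 ± 0.196 in the combined group (adjusted p = 0.0280), a value made uncertain by exons shared with Gm42688 and Ccdc142os. Mrpl38 was at 10.6 and 13.4, 13.5 and 12.4, 6.51 and 5.94, and then 5.02 and 5.42 FPKM in the same order of groups. It had the lowest level in the combined group rather than in Flt3-ITD, with log2 fold changes of -1.06 ± 0.175 (SE, adjusted p = 0.0119) and -0.84 ± 0.175 (adjusted p = 0.0184).

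Mrps22 encodes a small subunit protein found only in mitochondria and mutated in an inherited mitochondrial disease. It was at 47.8 and 44.7 FPKM among controls, 42.3 and 46.3 among Smc3 del/+ libraries, 22.9 and 25.1 with Flt3-ITD and 24.7 and 31.1 with both alleles, with log2 fold changes against control of -0.92 ± 0.151 (SE, adjusted p = 0.00817) and -0.72 ± 0.151 (adjusted p = 0.0249). Mrps36 was at 35.7 and 38.4, 28.8 and 33.1, 19.3 and 17.9, and then 21.1 and 23.6 FPKM. Its log2 fold changes were -0.96 ± 0.140 (SE, adjusted p = 0.00561) and -0.71 ± 0.140 (adjusted p = 0.0213). With 3 named pseudogenes, its FPKM may include or lack reads of near-identical copies.

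**Figure D3:**
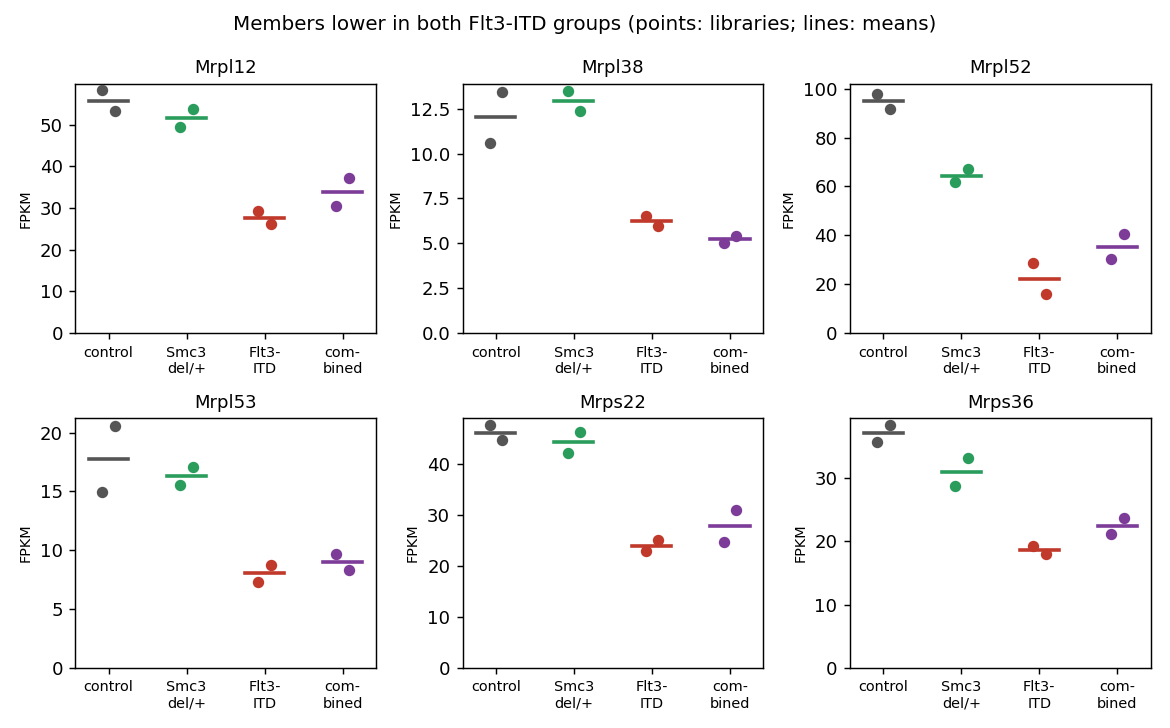
FPKM (y axis, from 0) of the 6 members called lower against control in both groups with Flt3-ITD, in each library (points) with group means (lines). In each panel the 4 libraries with Flt3-ITD lie below the 4 without it, for example 15.8 to 40.5 against 61.7 to 98 FPKM for Mrpl52.

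Another 8 members fell in Flt3-ITD against control and did not pass in the combined group. Mrps28, a small subunit gene, was at 23.4 and 20.3 FPKM among controls, 16.6 and 17.4 among Smc3 del/+ libraries, 3.34 and 7.74 with Flt3-ITD and 3.96 and 14.3 with both alleles. Its log2 fold change of -1.89 ± 0.514 (SE, adjusted p = 0.0423) was next in size to that of Mrpl52, with Flt3-ITD replicate 1 and combined replicate 1 lowest. Mrps5, with a bacterial counterpart, was at 41 and 36.1, 30.5 and 39.5, 17.2 and 20.3, and then 19.9 and 35.2 FPKM (log2 fold change -1.0 ± 0.263, adjusted p = 0.0378). In both genes combined replicate 1 lay near the Flt3-ITD libraries and replicate 2 well above them.

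Mrps18b, 1 of 3 related genes, was at 44.9 and 39.7 FPKM among controls, 38.7 and 46.9 among Smc3 del/+ libraries, 20.7 and 22.4 with Flt3-ITD and 19.2 and 32.4 with both alleles (log2 fold change in Flt3-ITD -0.94 ± 0.236, adjusted p = 0.0330). Its exons share bases with Gm16279 on the opposite strand. Mrps16 was at 13.4 and 12.9 FPKM with Flt3-ITD and 15.9 and 19.4 with both alleles, against the controls given earlier (-0.86 ± 0.174, adjusted p = 0.0173). Both Flt3-ITD libraries of Mrps16 lay below all other libraries.

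Mrpl37 and Mrpl42 encode large subunit proteins specific to mitochondria. Mrpl37 was at 52.2 and 52 FPKM among controls, 48 and 50.7 among Smc3 del/+ libraries, 31.4 and 31.1 with Flt3-ITD and 40.0 and 51 with both alleles (log2 fold change in Flt3-ITD -0.72 ± 0.144, adjusted p = 0.0163). Mrpl42 was at 143 and 118, 128 and 135, 72.6 and 93.7, and then 93.8 and 115 FPKM (-0.65 ± 0.177, adjusted p = 0.0427). In both genes the Flt3-ITD libraries lay below all 4 libraries without the Flt3 allele.

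Mrpl28 and Mrpl16 encode proteins with bacterial counterparts of the same number. Mrpl28 was at 17.5 and 21.3 FPKM among controls, 15.3 and 19.6 among Smc3 del/+ libraries, 11.4 and 10.4 with Flt3-ITD and 15.4 and 12.9 with both alleles (-0.77 ± 0.185 in Flt3-ITD, adjusted p = 0.0288). Mrpl16 was at 19.4 and 22.8, 19.1 and 20.6, 14.3 and 12.2, and then 13.1 and 15.7 FPKM (-0.63 ± 0.166, adjusted p = 0.0384).

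On the higher side of this comparison, Mrpl33 alone had Flt3-ITD libraries wholly above the controls, at 127 and 109.7 against 85.3 and 89 FPKM. Its log2 fold change of 0.43 ± 0.296 (SE) did not pass (adjusted p = 0.351). It was at 95.8 and 105 FPKM in Smc3 del/+ and 93.9 and 194 in the combined group. When the fit held just the 2 groups compared, or lacked either combined library, it passed as higher, in fits that called 16.3%, 19.1% and 19.2% of all genes higher.

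The number called in Flt3-ITD depends on the spread that the 8 libraries share and on the scale of the libraries. Without control replicate 1 or 2 it was 2 or 1, without either Smc3 del/+ library 7, without Flt3-ITD replicate 1 or 2 it was 3 or 5, and without combined replicate 1 or 2 it was 29 or 28; Mrpl52 was called in each. The share of all genes called lower moved as well, to 1.81% and 2.26% without a control, 5.43% and 5.45% without a Smc3 del/+ library, 2.93% and 4.30% without a Flt3-ITD library, and 20.1% and 20% without a combined library. On spike-in scaling 60 members fell, and in the table normalized by the authors 67, where the median of all genes was -0.50 and -0.58. Of all genes 31.2% and 43.2% were then called lower. These made up 97.1% and 97.8% of all calls, against 52.7% as reported. The members' median relative to all genes was -0.47 and -0.42 on these scales, beside -0.44.

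In the combined group 7 of 76 members fell against control and none rose, where 6.38% of all genes were called lower and 5.41% higher. The median log2 fold change was -0.24 (-0.22 for the large and -0.35 for the small subunit), beside -0.01 for all genes, with 59 of 76 negative. Libraries lay wholly below the controls in 34 members and wholly above in 2 (26.8% and 25.8% of all genes). Beside the 6 shared with Flt3-ITD, the call was Mrpl27, whose bacterial counterpart lies at the catalytic centre of the ribosome. Mrpl27 was at 16.8 and 9.98 FPKM among controls, 17.6 and 16.5 among Smc3 del/+ libraries, 8.75 and 11 with Flt3-ITD and 6.48 and 5.62 with both alleles (-0.99 ± 0.245 SE, adjusted p = 0.0411), and control replicate 2 lay close to the Flt3-ITD libraries. Its exons share bases with Eme1 on the opposite strand.

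The call count of the combined group rested on single libraries. It was 0 without either control, 2 without either Smc3 del/+ library, 12 without combined replicate 1 (then with 7 higher) and 26 without combined replicate 2, and 0 when the fit held just the 2 groups compared. Of all genes, 0.536% and 0.545% were called lower without a control, 2.95% and 2.97% without a Smc3 del/+ library, 16.0% without either combined library and 0.221% with just the 2 groups. Without combined replicate 1, 12.8% were called higher. Among members that did not pass, Mrpl33 (0.63 ± 0.296 SE, adjusted p = 0.211) and Mrps21 (0.05 ± 0.242, adjusted p = 0.920) lay wholly above the controls. Mrps21 was at 60.8 and 62.7 FPKM against 58.6 and 60.7.

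Averaged over both Smc3 states, 18 of 76 members were lower with Flt3-ITD and none higher, where 12.8% of all genes were called lower and 10.9% higher. The 18 comprised 13 large and 5 small subunit genes, and 69 of 76 members had a negative value. The median was -0.34 (-0.33 for the large and -0.39 for the small subunit), beside -0.01 for all genes. All 4 Flt3-ITD libraries lay below all 4 others in 17 members and above them in none (15.1% and 12.1% of all genes). The 6 members of the preceding comparisons were among the 18, with Mrpl38 at -1.0 ± 0.132 (SE, adjusted p = 0.00211) and Mrps22 at -0.79 ± 0.112 (adjusted p = 0.00286) of smallest p.

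Mrpl13, Mrpl21, Mrpl35, Mrpl47 and Mrpl50 passed here but in neither single group against control. Mrpl35 was at 4.90 and 4.78 FPKM among controls, 5.0 and 5.67 among Smc3 del/+ libraries, 3.17 and 2.53 with Flt3-ITD and 3.18 and 3.55 with both alleles, an averaged log2 fold change of -0.57 ± 0.136 (SE, adjusted p = 0.0190). Mrpl13 was at 42.7 and 50.5, 49.7 and 49.6, 34 and 40.1, and then 27.6 and 39.7 FPKM (-0.45 ± 0.137, adjusted p = 0.0452). In both genes the 4 libraries with Flt3-ITD were below the 4 without it.

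In the other 3 the libraries overlapped. Mrpl21 was at 7.54 and 10.4 FPKM among controls, 10.5 and 11.1 among Smc3 del/+ libraries, 4.73 and 8.01 with Flt3-ITD and 5.40 and 2.47 with both alleles (-0.89 ± 0.272, adjusted p = 0.0452). Mrpl47 was at 21.2 and 14.3, 19.5 and 18, 10.6 and 10.4, and then 6.27 and 14.8 FPKM (-0.78 ± 0.234, adjusted p = 0.0421). Combined replicate 2 and control replicate 2 of Mrpl47 differed little. Mrpl50 was at 41 and 33.5, 34.9 and 40.3, 24.9 and 23.6, and then 22.3 and 35.7 FPKM (-0.50 ± 0.154, adjusted p = 0.0477), and its combined replicate 2 lay above control replicate 2.

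The averaged Flt3-ITD values of the remaining called members were -0.79 ± 0.119 for Mrpl12, -0.92 ± 0.139 for Mrpl53, -0.70 ± 0.129 for Mrps36, -1.48 ± 0.276 for Mrpl52 and -0.84 ± 0.162 for Mrps18b on the log2 scale (SE). They were -0.53 ± 0.118 for Mrpl16, -1.47 ± 0.371 for Mrps28, -0.49 ± 0.132 for Mrpl42, -0.86 ± 0.236 for Mrpl27, -0.52 ± 0.152 for Mrpl28 and -0.69 ± 0.206 for Mrps5. Their adjusted p ran from 0.00339 (Mrpl12) to 0.0416 (Mrps5). The count of 18 was 9 and 8 without control replicates 1 and 2, 8 without Smc3 del/+ replicate 2, 10 without Flt3-ITD replicate 1 and 46 without combined replicate 2. Of all genes, 6.35%, 6.61%, 7.60%, 8.07% and 22.6% were called lower in these fits. Mrpl12, Mrpl38, Mrpl52, Mrpl53, Mrps18b, Mrps22 and Mrps36 were called in all 16 alternatives run for this comparison.

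**Figure D4:**
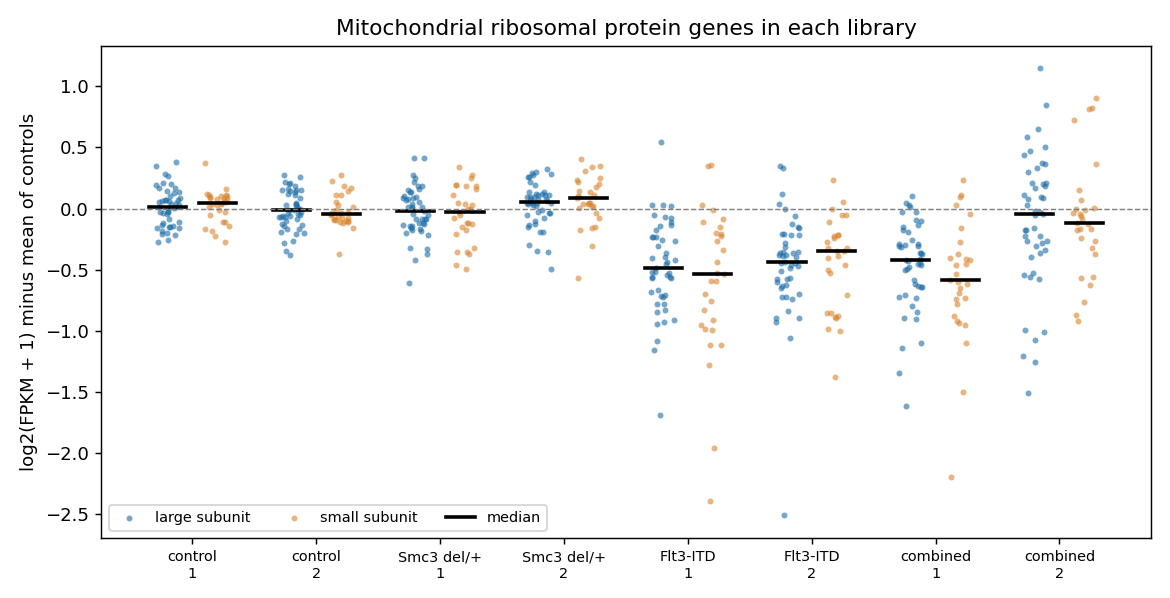
Difference of each member from its control mean on the log2(FPKM + 1) scale (y axis) in each of the 8 libraries (x axis), with points for the 47 large and 29 small subunit genes and bars for their medians. Control and Smc3 del/+ medians lie near 0, those of Flt3-ITD and of combined replicate 1 below it, and the points of combined replicate 2 spread widely on both sides of 0.

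Against Flt3-ITD, no member passed in the combined group, where 0.24% of all genes were called higher and 0.0461% lower. The median of the members was 0.19, with 59 of 76 positive (0.21 for the large and 0.18 for the small subunit), beside 0.00 for all genes. Libraries of the combined group lay wholly above those of Flt3-ITD in 21 members and wholly below in 4 (17.1% and 16.8% of all genes). An unadjusted p under 0.05 was seen in 3 on the higher and 2 on the lower side, beside 650 and 546 of all 10854 genes.

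The direction of that median rested on combined replicate 2. That library was higher than replicate 1 in 64 of 76 members, by a median of 0.39 on the log2 scale, where the median of all genes was -0.03. Examples chosen after their values were seen are Mrpl22, Mrpl33 and Mrpl20, at 31.7 and 129, 93.9 and 194 and 43.6 and 101 FPKM in replicates 1 and 2. Without combined replicate 2 the median was -0.03, and without replicate 1 it was 0.41 with 23 members called higher and 2 lower, in a fit that called 14.4% of all genes higher and 15.5% lower. The 76 members had a median transcript length of 1038 bases in GENCODE, against 2095.5 over genes tested with a length. In each of 4 length classes the median difference of the members was 0.28 to 0.75, beside -0.13 to 0.07 for all genes there. The part of transcript length in the difference between those replicates was not tested.

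Among members whose libraries did not overlap with those of Flt3-ITD, none passed, and the smallest p belonged to Mrpl37, Mrpl14 and Mrpl52 on the higher side, with log2 fold changes of 0.52 ± 0.144, 0.56 ± 0.170 and 0.69 ± 0.264 (SE, adjusted p = 0.279, 0.318 and 0.404). Mrpl14, with a bacterial counterpart, was at 15 and 14.3 FPKM in the combined group and 9.76 and 9.48 in Flt3-ITD. On the lower side, by the same choice, were Mrps12 (-0.67 ± 0.246), Mrpl27 (-0.62 ± 0.245) and Mrpl41 (-0.20 ± 0.157), with adjusted p of 0.390, 0.418 and 0.611. Mrpl54, Mrpl21 and Mrps15 had smaller p than Mrpl41 on that side, with overlapping libraries. Mrps12, the counterpart of a bacterial protein of the decoding site, was at 4.62 and 4.94 FPKM in the combined group, 6.51 and 10.3 in Flt3-ITD and 8.34 and 11.7 in controls.

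No member passed for the averaged effect of the Smc3 deletion or for its interaction with Flt3-ITD. The averaged effect had a median of 0.09 over the members with 61 of 76 positive, beside 0.006 for all genes. Without combined replicate 2 the members' median was -0.009. Of all genes 0% were called in either direction. An unadjusted p under 0.05 was seen in 1 member, on the higher side, beside 229 of all 10854 genes higher and 296 lower. Groups of 4 libraries did not separate in any member, and of all 10854 genes they did so in just 99 on the higher and 85 on the lower side. For the interaction the members' median was 0.19, beside -0.007 for all genes, and it was -0.05 without combined replicate 2. Of all genes 0.0184% were called in each direction. For 4 members on the higher and 1 on the lower side the unadjusted p was under 0.05, beside 564 and 445 of all genes. The smallest p was that of Mrpl52 (1.24 ± 0.373 SE, adjusted p = 0.384). Next by p were Mrps16 (0.73 ± 0.246, adjusted p = 0.442) and Mrpl37 (0.60 ± 0.204, adjusted p = 0.449), and on the lower side Mrpl27 (-0.99 ± 0.346, adjusted p = 0.456). Without combined replicate 1, 12 members passed as higher and 1 as lower, in a fit that called 9.14% of all genes higher and 9.80% lower.

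Large and small subunit genes had close medians, less than 0.0926 apart in 5 of 6 comparisons. The median of the large minus that of the small subunit was -0.03 in Smc3 del/+, 0.00 in Flt3-ITD, 0.13 in the combined group against control and 0.03 in the combined group against Flt3-ITD. It was 0.02 for the averaged Smc3 effect and 0.06 for the averaged Flt3-ITD effect. For scale, 0.0926 is the standard deviation between replicates of the large minus small difference in median log2 level per library. A spread for differences between medians of fold changes was not estimated. The exception was the combined group against control, where the difference was 0.07 without combined replicate 1 and 0.16 without combined replicate 2. Without combined replicate 2 the difference was 0.15 in the combined group against Flt3-ITD. For the interaction, which is not among the 6, the medians were 0.19 for the large and 0.097 for the small subunit.

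The 3 related genes Mrps18a, Mrps18b and Mrps18c did not share a pattern of calls. Mrps18b fell in Flt3-ITD. Mrps18a was at 19.7 and 25.6 FPKM among controls, 25.7 and 22.8 among Smc3 del/+ libraries, 17.6 and 16.7 with Flt3-ITD and 21.7 and 12.8 with both alleles (-0.37 ± 0.245 in Flt3-ITD, SE, adjusted p = 0.331). Mrps18c, which holds the place of the bacterial protein, was at 105 and 89.5, 85.7 and 91.9, 96.2 and 75.9, and then 72.9 and 96.2 FPKM (-0.18 ± 0.184, adjusted p = 0.543). A difference in response between the 3 genes was not tested.

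Other genes of mitochondrial translation were given by lists drawn up by function, to be read against the 9.5% of all genes called lower in Flt3-ITD. The shares called lower were 35.7% for translation factors, 15% for assembly genes, 12.5% for further genes listed with the ribosome, 11.8% for synthetases, 10% for regulators and 6.67% for transcription and RNA processing. These shares rest on 1 to 5 genes each, and no list was tested as a whole. Of 8 further genes listed with the mitochondrial ribosome under other symbols, 1 fell in Flt3-ITD against control and none rose. It was Oxa1l, for the insertase at the tunnel exit rather than a ribosomal protein (-0.59 ± 0.154 SE, adjusted p = 0.0360). Averaged over the Smc3 states 3 of the 8 fell (37.5%, beside 12.8% of all genes called lower). They were Dap3, a GTP-binding small subunit protein (-0.57 ± 0.128, adjusted p = 0.0154), Gadd45gip1, of the large subunit (-0.63 ± 0.159, adjusted p = 0.0234), and Oxa1l (-0.41 ± 0.122, adjusted p = 0.0397). Translation factors then had 35.7% called lower, assembly genes 20% and synthetases 23.5%. Transcription and RNA processing genes had 26.7% and regulators 10%. The median of the 8 was -0.42 in Flt3-ITD against control.

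Among 14 translation factors 5 fell and none rose in Flt3-ITD, with a median of -0.47. They included Lrpprc, which stabilises mitochondrial messages (-0.62 ± 0.143 SE, adjusted p = 0.0261), Mrrf, the recycling factor (-0.88 ± 0.217, adjusted p = 0.0308), and Gfm1, an elongation factor (-0.79 ± 0.205, adjusted p = 0.0362). Of 20 assembly genes 3 fell and none rose (median -0.20): Fastkd2, an RNA-binding protein of large subunit assembly (-0.95 ± 0.161, adjusted p = 0.00945), the ribosomal RNA methyltransferase gene Rnmtl1 (-1.21 ± 0.258, adjusted p = 0.0198) and the GTPase gene Noa1 (-0.83 ± 0.196, adjusted p = 0.0277).

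Of 17 mitochondrial aminoacyl-tRNA synthetase genes, which charge the transfer RNAs, 2 fell and none rose (median -0.55): Tars2 (-0.92 ± 0.232 SE, adjusted p = 0.0339) and Fars2 (-0.68 ± 0.192, adjusted p = 0.0480). In transcription and RNA processing 1 of 15 fell (median -0.21), Peo1, the mitochondrial DNA helicase (-1.11 ± 0.242, adjusted p = 0.0216). Averaged over the Smc3 states 4 of the 15 fell (26.7%, beside 12.8% of all genes). Among them was Tfam, which packages mitochondrial DNA and starts its transcription (-0.53 ± 0.124, adjusted p = 0.0176). Among 10 tested regulators of mitochondrial biogenesis 1 fell and the median was 0.01: Pprc1, a coactivator related to PGC-1 alpha (-1.06 ± 0.162, adjusted p = 0.00660).

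For reference, cytosolic ribosomal protein genes had a median of -0.47 in Flt3-ITD against control (11 of 81 tested lower, none higher) and nuclear-coded respiratory chain genes of -0.33 (12 of 76 lower, none higher). Shares called lower were thus 18.4% for the members, 13.6% and 15.8%, each above the 9.5% of all genes. For the averaged Flt3-ITD effect they were 23.7%, 12.3% and 28.9% in the same order, beside 12.8% of all genes. In the combined group against control they were 9.21%, 2.47% and 11.8%, beside 6.38% of all genes. Differences between these lists were not tested. In Smc3 del/+ the cytosolic list had a median of -0.13, with 73 of 81 negative and none called, beside 0.02 for the members.

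**Figure D5:**
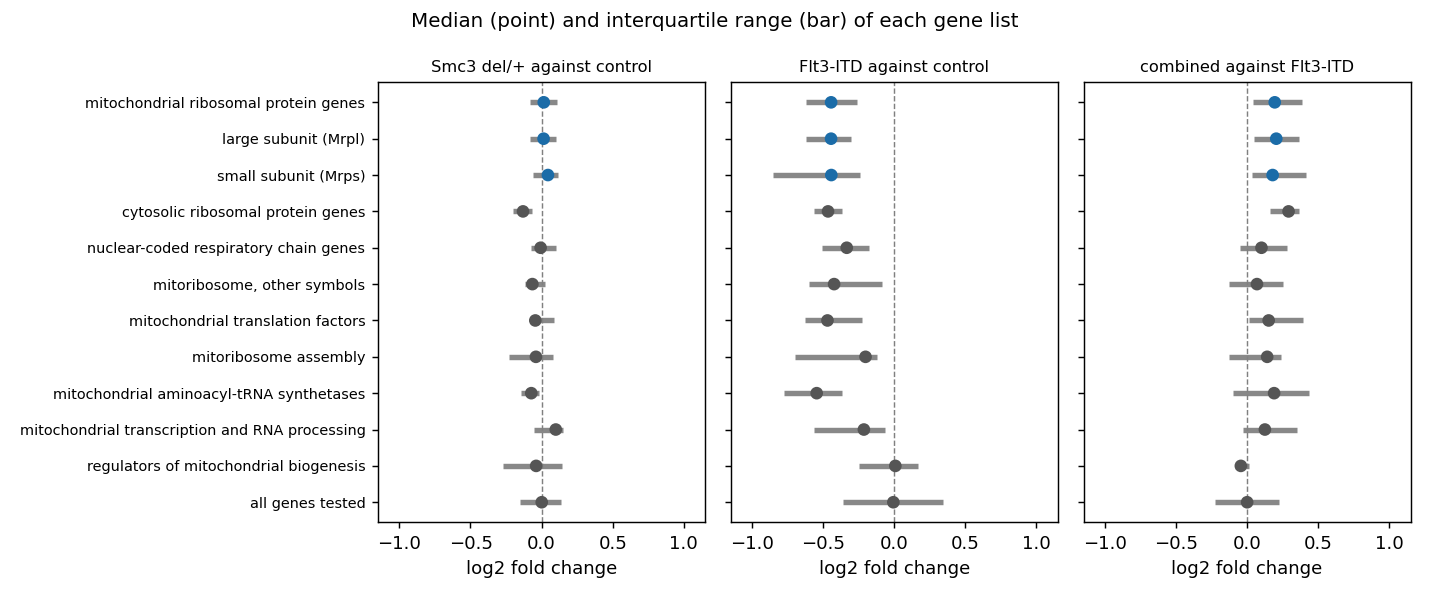
Median (point) and interquartile range (bar) of log2 fold changes (x axis) for the members, their subunits, comparison lists and all genes tested (rows) in 3 comparisons. In Flt3-ITD against control, the members' median of -0.44 lies beside those of the cytosolic ribosomal protein genes (-0.47) and translation factors (-0.47), with all genes at -0.01.

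Across promoters, over the 300-base window from 250 bases before to 50 after the start, on both strands, the ETS motif was in 35.8% of the 67 members with a promoter and in 9.93% of 27025 genes. These 27025 are all genes with a promoter and were not limited to genes expressed here, as all members were. YY1 letters (AAGATGGC) were in 17.9% against 3.19%, and NRF1 letters (CGCATGCG) in 10.4% against 2.07%. The GC box was in 49.3% against 38.2% and the E-box (CACGTG) in 7.46% against 8.09%. ETS letters were in 31.7% of large and 42.3% of small subunit genes, YY1 letters in 14.6% and 23.1%, NRF1 letters in 14.6% and 3.85%, and the GC box in 39.0% and 65.4%.

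Members often stood head to head with another gene. A start on the opposite strand within 1000 bases was found for 25 of 67 members (37.3%), against 12.2% of all 27025 genes, again not limited to expressed genes. Mrpl46 and Mrps11, a large and a small subunit gene, start 42 bases apart. Mrps12 starts 147 bases from Sars2, which encodes the mitochondrial seryl-tRNA synthetase, and Mrpl47 308 bases from Ndufb5, a respiratory chain gene. Mrpl43 starts 116 bases from Twnk, the present name of Peo1. Mrpl43 was at 14.5 and 18.5 FPKM in Flt3-ITD against 18.6 and 25 in controls and did not pass (-0.38 ± 0.210 SE, adjusted p = 0.249), and a difference from Peo1 was not tested. The longest exon stretch that Mrpl43 and Twnk share, on opposite strands, is 358 bases. In GENCODE M21, 32 of 76 members share exon bases with another gene, 27 of them on the opposite strand, and 3 have named pseudogenes, which leaves their FPKM uncertain.

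Marker genes of other cell types moved with Flt3-ITD. Of 8 erythroid markers, 7 were tested and 6 were lower; their summed FPKM was 279 to 292 in controls, 253 to 281 in Smc3 del/+, 37.3 to 38.4 with Flt3-ITD and 54.6 to 98 with both alleles, with Hba-a1 and Hbb-b1 at or near 0 in most libraries. Of 8 granulocyte markers 2 were higher, with sums of 79947 to 87065, 104960 to 108470, 158660 to 223570 and 138050 to 169970 FPKM. Of 5 B cell markers 4 were lower, with sums of 59.4 to 157, 25.6 to 37.5, 5.06 to 9.26 and 6.06 to 9.53 FPKM. Of 4 macrophage markers 1 was higher and 3 lower, with sums of 20.5 to 33.1, 17.6 to 29.6, 5.17 to 7.26 and 8.15 to 9.29 FPKM. T cell and stroma markers summed to 2.39 FPKM or less in every library. Progenitor markers (Kit, Cd34, Ptprc, Gata2, Myb and Cd48) were present in all libraries, with sums of 512 to 685 FPKM, and 2 of these 6 were higher and 1 lower in Flt3-ITD. Of 3 endothelial markers Pecam1 was tested and not called.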

How the data were processed

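RNA was measured in c-Kit+ marrow of 8 mice, 2 per group. The authors deposited FPKM per gene; the submitters' processing notes name TopHat, Cufflinks 2.0.0 and mm9 without roles, and none of the sources used here gives the annotation. Values were log2(FPKM + 1), with 10854 mouse genes at a mean of 1 FPKM or more and 92 spike-ins left out. limma 3.58.1 (R 4.3.3; variance trend, all 8 libraries, Benjamini-Hochberg adjustment, threshold 0.05) was fitted to group means, and without interaction for averaged effects. The script was tested on simulated data. Replicates are labelled as individual mice. Every called member is named, with 3 that did not pass where few were called, the 5 highest and 5 lowest, and up to 3 called genes per functional list. Members and lists were chosen with earlier results of these data known. Alternatives covered scaling, filter, pseudocount, groups fitted, replicate block and each library left out. Promoters and gene overlaps came from GRCm38, so no mm9 coordinate was used. The depth in reads is unknown, so no counting interval is given.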

Additional observations from a re-analysis of the deposited data

How the results depend on the processing

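Scaling moved medians and counts. In the table normalized by the authors, the members' median was -0.35 in Smc3 del/+ against control (all genes -0.38), -1.0 in Flt3-ITD against control with 67 members lower, 0.0341 in the combined group against Flt3-ITD, -0.94 in the combined group against control with 63 lower, -0.16 for the averaged Smc3 effect (all genes -0.24) and -0.78 for the averaged Flt3-ITD effect with 67 lower. With spike-in scaling these were -0.33 (all genes -0.34), -0.97 with 60 lower, -0.92 against control in the combined group with 59 lower, -0.16 (all genes -0.24) and -0.77 with 64 lower. Scaling to the mouse total without Mir5133, added after seeing the data, gave -0.71 with 28 lower in Flt3-ITD, -0.47 with 15 lower in the combined group against control and -0.58 with 53 lower for the averaged effect. Of all genes, 18.0%, 10.7% and 25.4% were called lower there. For the same 3 comparisons the shares were 43.2%, 53.1% and 43.8% in the table normalized by the authors. With spike-in scaling they were 31.2%, 43.6% and 38.2%. No member was called higher under these scalings. Relative to all genes, the Flt3-ITD median was -0.42 to -0.47 under every scaling named here. For the combined group against control, this relative median was -0.27 in the authors' table, -0.27 with spike-in scaling and -0.24 without Mir5133. In the same order it was -0.34, -0.36 and -0.35 for the averaged Flt3-ITD effect. For the combined group against Flt3-ITD it was 0.14 in the authors' table. The lower calls in Flt3-ITD against control and for the averaged effect were 9 and 10 with no filter on low values. Of all genes 6.01% and 8.3% were then called lower. With only the compared groups fitted, 23 were lower and 1 higher for Flt3-ITD (16.9% and 16.3% of all genes). For the combined group against control it was 0 (0.221% of all genes lower and 0.157% higher).

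Leaving out each library in turn gave 1 to 29 members lower and 0 to 1 higher in Flt3-ITD against control, 0 to 26 lower and 0 to 7 higher in the combined group against control (median -0.45 to -0.0719), and 8 to 46 lower and 0 to 1 higher for the averaged effect. For the combined group against Flt3-ITD it gave 0 to 23 higher, 0 to 2 lower, a median of -0.0310 to 0.41 and a large minus small difference of -0.0336 to 0.15, and for the interaction 0 to 12 higher and 0 to 1 lower. These fits assume that a lone library varies as the others do. With a replicate block the lower counts were 14, 7 and 17 (8.28%, 5.18% and 11.5% of all genes). It lost Mrpl16 and Mrpl42 in Flt3-ITD, Mrpl27 in the combined group against control, and Mrpl21, Mrpl28, Mrpl47 and Mrpl50 for the averaged effect, and kept 12, 6 and 14 of the members called as reported. Deviations of same-numbered libraries from their group means had correlations of -0.113 to 0.0229 between groups, over all genes tested. Whether same-numbered libraries shared a batch is not stated in the labels and was not tested. The cause of these shifts was not tested. All called members kept their sign in every alternative.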
